A study of Homo sapiens with 15 samples.

Results

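The genes described here are 39 genes of the endoplasmic reticulum (ER) stress response and of the integrated stress response. They were chosen by name for their role, with earlier results of these data known. They cover the stress sensors, the transcription factors that the sensors feed, the feedback and death genes of the pathway, the amino acid and one-carbon genes it supplies, the ER chaperones and folding enzymes, and ER-associated degradation. A probe was assigned to a gene through its RefSeq accession, and all 39 genes had a probe, among 19483 genes named in this way. They were read by 49 of the 34127 probes on the array. Of these genes, 31 had 1 probe and 8 had several, 18 probes in all. In each of the 15 tumors all 49 probes were well above background, so the filter on dim probes, which left 30585 probes of the array, removed none of them.

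HCT116, a line of human colon cancer cells, was grown as xenografts in athymic nude mice, and the RNA of each tumor was read on its own single-color Agilent human array. The 5 constructs had 3 tumors each: Myc-tagged wild-type MOAP-1, its K264R form and its K278R form, in each of which a lysine was replaced by arginine, RASSF1A, and the empty vector. MOAP-1 (modulator of apoptosis 1) is a BH3-like protein that binds the tumor suppressor RASSF1A and acts on Bax. The cells had been transfected transiently, without selection of a clone, and the share of tumor cells that still carried the construct is not given in the sources used here. Each tumor also held cells of the mouse host. The labels do not say whether the 3 tumors of a construct came from separate mice, so p values measure the spread between these tumors.

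In the unfolded protein response, PERK (EIF2AK3), IRE1 (ERN1) and ATF6 sense misfolded protein in the ER. PERK phosphorylates eIF2, as do the kinases that sense amino acid loss, heme shortage or double-stranded RNA. This slows most translation but favors translation of ATF4, and the shared output is called the integrated stress response. IRE1 splices XBP1 mRNA, and cleaved ATF6 and spliced XBP1 raise chaperones such as BiP (HSPA5). A probe on XBP1 does not tell spliced from unspliced mRNA, and arrays of mRNA do not read the phosphorylation of eIF2 or the translation of ATF4.

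Each value below is a log2 signal after the 75th percentile of its array had been set to 0. Values of different probes are not compared, since probes differ in brightness. A change was called when limma's adjusted p over all 30585 probes was below 0.05 and the change was at least 1.5-fold, and "rose" and "fell" are used only of called changes. The median SD between tumors of 1 construct was 0.17 over the 49 probes and 0.18 over all probes kept. The 75th percentile of an array lay between 496.3 and 1402 intensity units, 85.1% to 93.1% of its spots were well above background and none was saturated. Tumors of 1 construct correlated at 0.986 or more. The MOAP1 probe was higher than in vector by 0.86 ± 0.14 (SE) in the MOAP-1 tumors, 0.55 ± 0.14 in the K264R tumors and 0.74 ± 0.14 in the K278R tumors, whereas the RASSF1 probe differed from vector by -0.12 ± 0.10 in the tumors labelled RASSF1A. Whether this probe reads a region that the construct carries is not given in the sources used here, so it does not check that label, and RASSF1A below means the tumors so labelled. The images of the MOAP-1, K264R and K278R arrays were extracted on an earlier day than those of the RASSF1A and vector arrays, so the day of extraction and the construct cannot be told apart in any comparison across these sets. No array of a MOAP-1 form was on a slide with a vector array. Slide and construct therefore cannot be told apart in any comparison of these forms with vector. The K264R arrays were on a slide of their own.

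In the MOAP-1 tumors, 8 of the 49 probes rose and 1 fell against vector. The share of all probes that rose was 9.92%, and 6.69% fell. The median change was 0.10 over the 49 probes and 0.02 over all probes. The 8 that rose read PDIA6, ATF2, ATF3, EDEM1, DDIT3, SLC3A2, PDIA4 and EIF2AK3, and the probe that fell read CRELD2. The other 40 probes lay between -0.56 and 0.58. A further 7 had an adjusted p below 0.05 with less than a 1.5-fold change. These were lower for TRIB3, PSPH, 1 probe each of CHAC1 and SEL1L and 2 probes of ATF3, and higher for ATF5.

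In the K264R tumors 10 of the 49 probes rose and 2 fell, beside 9.25% and 10.2% of all probes. In the K278R tumors 6 rose and 1 fell, beside 7.71% and 3.2% of all probes. The 12 probes called in K264R became 6 without K264R tumor 1 and 7 without vector tumor 2, beside 16.7% and 16% of all probes. The 7 called in K278R became 4 without K278R tumor 3 and 3 without vector tumor 2, beside 7.74% and 5.52%. The normexp setting started from the median spot signal instead of the processed signal. It fitted the background of each array from all of its spots and added 50 units, steps that were not tested apart. It called 1 probe in MOAP-1, 2 in K264R and 0 in K278R, beside 1.71%, 2.99% and 0.00327% of all probes. Spots with extreme local background numbered 6 on K264R array 2, 6 on vector array 2 and 5 on vector array 3. When these were left out of the fit, 5, 7 and 3 probes were called, beside 9.01%, 29.4% and 4.26%. The 3 comparisons share the vector tumors, so their lists are not independent of each other, and the values are given side by side. In the RASSF1A tumors none of the 49 probes was called higher or lower than vector by limma, beside 0% and 0% of all probes. An unadjusted limma p below 0.05 was found for 7 of the 49, beside 3695 of all 30585 probes. The methods' t-test, at an unadjusted p below 0.05 and 1.5-fold, also called 0 of the 49, beside 0.611% of all probes.

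**Figure D1:**
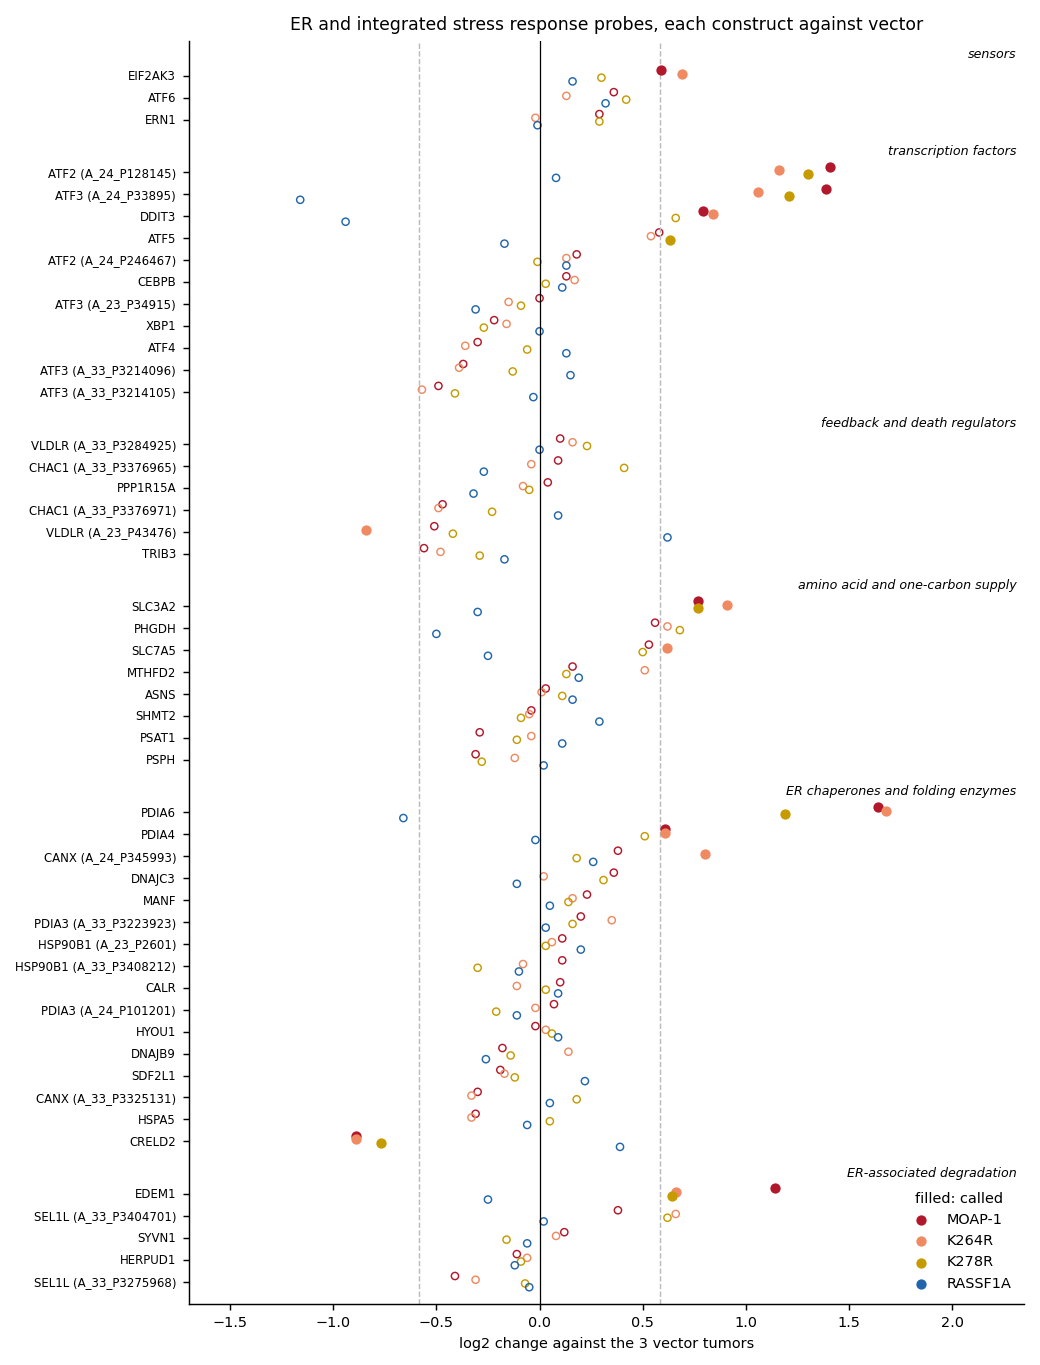
Log2 change of each of the 49 probes against the 3 vector tumors (x axis), for MOAP-1, K264R, K278R and RASSF1A, by the role of the gene and, within a role, by the change in MOAP-1. Filled points were called, and dashed lines mark 1.5-fold. Most probes lie within the dashed lines, PDIA6 lies farthest to the right, at 1.64 in MOAP-1 and 1.68 in K264R, CRELD2 lies to the left at -0.89, and the RASSF1A points of ATF3 and DDIT3 lie on the other side of 0 from those of MOAP-1.

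Among the sensors, EIF2AK3, which encodes PERK, gave -2.12, -2.27 and -2.26 in the MOAP-1 tumors against -2.89, -2.76 and -2.76 with vector. It gave -1.82, -2.51 and -2.03 in the K264R tumors, -2.42, -2.96 and -2.14 in the K278R tumors, and -2.51, -2.57 and -2.84 in the RASSF1A tumors. The MOAP-1 and K264R tumors all lay above the vector tumors, and those of the other constructs overlapped them. EIF2AK3 rose by 0.59 ± 0.20 (SE) in MOAP-1 (1.51-fold, adjusted p = 0.0376) and by 0.69 ± 0.20 in K264R (adjusted p = 0.0165). The change in K278R was 0.30 ± 0.20. The call in MOAP-1 was lost when any single MOAP-1 or vector tumor was left out, with changes between 0.54 and 0.62, and that in K264R without K264R tumor 1 or 3 or vector tumor 1. Quantile normalization also ended the call in MOAP-1 (0.45). With normexp the change was -0.41 in MOAP-1 and 0.15 in K264R, and 0.25 and 0.24 without the extreme spots.

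ERN1, which encodes IRE1, gave -3.92, -3.51 and -3.59 in the MOAP-1 tumors against -3.86, -4.08 and -3.96 in the vector tumors. It gave -4.03, -3.91 and -4.03 with K264R, -3.75, -3.44 and -3.85 with K278R, and -4.03, -4.02 and -3.88 with RASSF1A. ATF6 gave 1.26, 1.68 and 1.76 in the MOAP-1 tumors against 1.20, 1.32 and 1.09 in the vector tumors. The MOAP-1 tumors overlapped the vector tumors for both genes, and neither gene was called in any comparison. ATF6 lay at 1.14, 1.61 and 1.24 with K264R, at 1.46, 1.80 and 1.60 with K278R and at 1.58, 1.55 and 1.44 with RASSF1A. Its change was 0.36 (95% interval 0.03 to 0.69) in MOAP-1, 0.42 (0.09 to 0.74) in K278R and 0.32 (-0.01 to 0.65) in RASSF1A.

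ATF4, the factor whose translation rises when eIF2 is phosphorylated, gave 4.72, 4.62 and 4.84 with MOAP-1 and 4.68, 4.75 and 4.57 with K264R. It gave 5.07, 5.04 and 4.78 with K278R, 5.14, 5.33 and 4.98 with RASSF1A, and 5.02, 5.03 and 5.02 with vector. The MOAP-1 and K264R tumors all lay below the vector tumors. The change was -0.30 (95% interval -0.54 to -0.06) in MOAP-1 and -0.36 (-0.60 to -0.12, adjusted p = 0.0248) in K264R, neither of them 1.5-fold.

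DDIT3, which encodes CHOP, the death-promoting factor downstream of ATF4, gave -2.24, -2.46 and -2.55 in the MOAP-1 tumors against -2.83, -3.85 and -2.95 in the vector tumors. It gave -2.14, -2.67 and -2.28 with K264R, -2.49, -2.86 and -2.29 with K278R and -4.32, -4.46 and -3.66 with RASSF1A. All MOAP-1 and K264R tumors lay above all vector tumors, and vector tumor 2 lay about 1 log2 unit below the other two. DDIT3 rose by 0.79 ± 0.27 (SE) in MOAP-1 (1.73-fold, adjusted p = 0.0409) and by 0.84 ± 0.27 in K264R (adjusted p = 0.0278), and its change in K278R was 0.66 ± 0.27. Without vector tumor 2 the change in MOAP-1 was 0.47 (adjusted p = 0.181) and that in K264R 0.52 (adjusted p = 0.125), and the call in K264R was also lost without K264R tumor 1 or 3. The call in MOAP-1 was also lost without any single MOAP-1 tumor, at 0.70 to 0.86, with quantile normalization, at 0.65, and, with the change still at 0.79, without the filter on dim probes. With normexp it was -0.49 in MOAP-1 and 0.05 in K264R, and 0.33 and 0.28 without the extreme spots. With the replicate number as a block, DDIT3 was also called in K278R (0.66, adjusted p = 0.0351).

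ATF2 and ATF3 are factors of the same leucine zipper family. ATF3 is induced by ATF4, and ATF2 is activated by stress kinases. The ATF2 probe A_24_P128145 gave -4.59, -4.43 and -4.59 in the MOAP-1 tumors, -4.67, -4.73 and -4.96 with K264R, and -4.91, -4.59 and -4.44 with K278R. It gave -6.00, -6.05 and -5.54 with RASSF1A and -5.84, -6.29 and -5.71 with vector, and all tumors of the MOAP-1 forms lay above all others. It rose by 1.41 ± 0.17 (SE) in MOAP-1 (2.66-fold, adjusted p = 0.000233), 1.16 ± 0.17 in K264R and 1.30 ± 0.17 in K278R. This rise depended on the spot signal and background correction used: with normexp the changes were -1.20, -0.59 and -1.14, and without the extreme spots they were -0.02, -0.36 and 0.04.

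The ATF3 probe A_24_P33895 gave -2.46, -2.63 and -3.07 in the MOAP-1 tumors, -2.85, -3.45 and -2.84 with K264R, and -2.97, -2.96 and -2.78 with K278R. It gave -5.56, -5.78 and -4.46 with RASSF1A and -4.13, -4.44 and -3.76 with vector. It rose by 1.39 ± 0.30 (SE) in MOAP-1 (2.62-fold, adjusted p = 0.0043), 1.06 ± 0.30 in K264R and 1.21 ± 0.30 in K278R. With normexp these changes were -0.32, 0.02 and -0.40. Without vector tumor 2 the calls in K264R (0.90) and K278R (1.05) were lost, as they were without K264R tumor 1 or 3 and without K278R tumor 3. Both of these probes stand in a gene table that the study selected on the MOAP-1 and vector tumors, so their rise is not independent evidence.

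The other probes of these genes read differently. The ATF2 probe A_24_P246467, of the same accession, gave -3.31, -3.28 and -3.43 in MOAP-1 against -3.40, -3.53 and -3.64 in vector, a change of 0.18 (95% interval -0.06 to 0.43). The ATF3 probe A_23_P34915 gave 2.39, 1.92 and 1.68 in MOAP-1 against 1.89, 2.02 and 2.09 in vector, a change of 0.00. The ATF3 probes A_33_P3214096 and A_33_P3214105 were lower in every MOAP-1 tumor than in every vector tumor, with changes of -0.37 (adjusted p = 0.0229) and -0.49 (adjusted p = 0.00104) that were not 1.5-fold. The level of ATF3 mRNA as a whole therefore has no settled direction in these data.

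**Figure D2:**
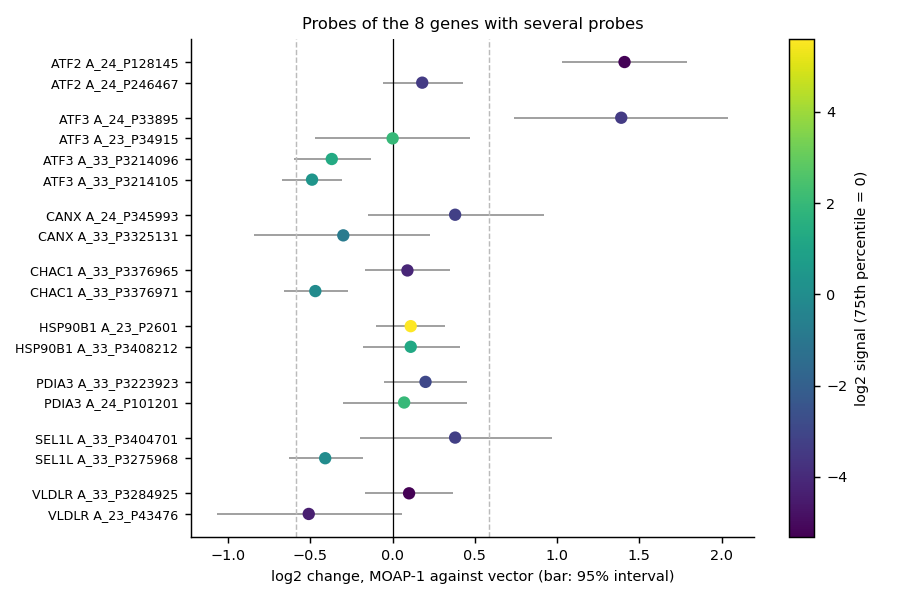
Log2 change in MOAP-1 against vector, with its 95% interval, of the 18 probes of the 8 genes that had several probes, colored by the mean of the MOAP-1 and vector signals. ATF2, ATF3, CANX, CHAC1, SEL1L and VLDLR had probes that differed in size or direction, with ATF3 between -0.49 and 1.39, and both probes of HSP90B1 lay at 0.11.

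CHAC1 and TRIB3 are among the most responsive targets of ATF4 and CHOP. CHAC1 degrades glutathione, and TRIB3 feeds back on ATF4. TRIB3 gave 2.18, 1.98 and 2.34 in the MOAP-1 tumors, 2.27, 2.24 and 2.25 with K264R, 2.43, 2.64 and 2.26 with K278R, 2.58, 2.61 and 2.50 with RASSF1A and 2.74, 2.67 and 2.78 with vector. Every vector tumor lay above every other tumor. The change was -0.56 ± 0.11 (SE) in MOAP-1 (adjusted p = 0.00232), -0.48 ± 0.11 in K264R and -0.29 ± 0.11 in K278R, under 1.5-fold in each. Without vector tumor 2 or without MOAP-1 tumor 3, TRIB3 was called lower in MOAP-1, at -0.59 and -0.65.

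The CHAC1 probe A_33_P3376971 gave -0.43, -0.27 and -0.32 in MOAP-1, -0.34, -0.31 and -0.44 with K264R, -0.06, -0.20 and -0.07 with K278R, 0.30, 0.18 and 0.17 with RASSF1A, and 0.24, 0.09 and 0.05 with vector. The change in MOAP-1 was -0.47 (95% interval -0.66 to -0.27). Its other probe, A_33_P3376965, gave -4.22, -4.03 and -4.04 in MOAP-1, -4.28, -4.25 and -4.15 with K264R, -3.83, -3.83 and -3.68 with K278R, -4.77, -4.35 and -4.24 with RASSF1A, and -4.23, -4.17 and -4.16 with vector. The MOAP-1 tumors lay below the vector tumors with the first probe and overlapped them with the second, for which the change was 0.09.

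Of the other feedback and death genes, PPP1R15A, the GADD34 subunit that removes phosphate from eIF2, changed by 0.04 in MOAP-1 and was not called. VLDLR, a lipoprotein receptor induced by ATF4 under stress, had 2 probes. A_23_P43476 gave -4.79, -4.29 and -4.84 in MOAP-1, -5.21, -4.74 and -4.97 with K264R, -4.50, -4.64 and -4.51 with K278R, -3.04, -3.27 and -4.24 with RASSF1A, and -3.91, -4.04 and -4.44 with vector. It fell by 0.84 on the log2 scale in K264R (SE 0.26, adjusted p = 0.024), and the call was lost without K264R tumor 1 or 3 or vector tumor 1 or 2. With normexp it was -0.90 and not called (adjusted p = 0.645). The probe A_33_P3284925 changed by 0.16 in K264R, and was called lower, at -0.60, with normexp fitted without the extreme spots.

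The amino acid and one-carbon genes were read by 8 probes, of which 1 rose in MOAP-1, 2 in K264R and 1 in K278R, beside 9.92%, 9.25% and 7.71% of all probes. SLC3A2, the heavy chain that carries several amino acid transporters to the cell surface, gave 0.04, 0.05 and -0.02 in the MOAP-1 tumors, 0.19, 0.08 and 0.22 with K264R and 0.03, -0.12 and 0.15 with K278R. It gave -1.41, -1.12 and -0.62 with RASSF1A and -0.71, -1.11 and -0.42 with vector. Every tumor of a MOAP-1 form lay above every RASSF1A and vector tumor. SLC3A2 rose by 0.77 ± 0.19 (SE) in MOAP-1 (1.70-fold, adjusted p = 0.00899), 0.91 ± 0.19 in K264R and 0.77 ± 0.19 in K278R, and the last was lost without vector tumor 2 (0.59, adjusted p = 0.0747) or K278R tumor 3 (0.70, adjusted p = 0.0544). With normexp SLC3A2 was called in none of the 3, at 0.53, 0.64 and 0.53.

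SLC7A5, the light chain that pairs with SLC3A2 to import leucine, rose by 0.62 ± 0.22 in K264R (adjusted p = 0.0397). Its changes were 0.53 ± 0.22 in MOAP-1 and 0.50 ± 0.22 in K278R, and the call in K264R was lost when any single K264R tumor or vector tumor 1 or 2 was left out, with 0.38 (adjusted p = 0.178) without vector tumor 2, with the slide as a random block (0.58) and with normexp (0.61, adjusted p = 0.382). Among the alternatives, SLC7A5 was called in MOAP-1 with quantile normalization (0.62) and without vector tumor 3 (0.72), and in K278R without vector tumor 3 (0.69). PHGDH, the first enzyme of serine synthesis, changed by 0.56, 0.62 and 0.68 in MOAP-1, K264R and K278R with no overlap with the vector tumors, and was not called against vector. With scan day as a term, or without vector tumor 3, PHGDH was called in K264R (0.62 and 0.80) and K278R (0.68 and 0.87). ASNS, the asparagine synthetase that is a standard readout of ATF4, gave 2.02, 1.95 and 2.25 in MOAP-1, 2.0, 2.07 and 2.11 with K264R, 2.09, 2.04 and 2.33 with K278R, 2.08, 2.55 and 1.99 with RASSF1A, and 2.0, 1.87 and 2.27 with vector. Its groups overlapped in all 4 comparisons with vector, and the change in MOAP-1 was 0.03 (95% interval -0.30 to 0.35). The other serine and one-carbon enzymes, PSAT1, PSPH, SHMT2 and MTHFD2, were not called in any comparison. MTHFD2 was called in K264R with quantile normalization (0.65) and without K264R tumor 2 or vector tumor 3 (0.59 in each).

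**Figure D3:**
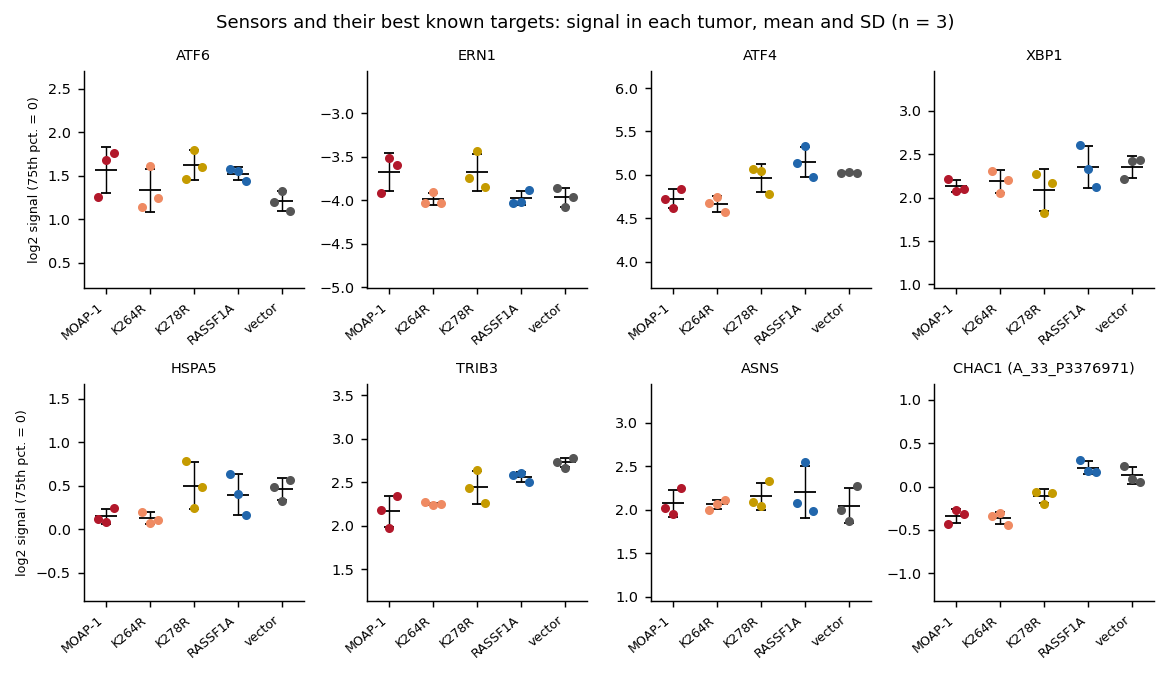
Log2 signal in each tumor (points) with the mean and SD of 3 tumors (bars) for the sensors ATF6 and ERN1 and for ATF4, XBP1, HSPA5, TRIB3, ASNS and 1 probe of CHAC1. None of these was called in any of the 7 comparisons. The MOAP-1 tumors lie below the vector tumors for ATF4, HSPA5, TRIB3 and CHAC1, meet them at 2.21 for XBP1 and overlap them for ATF6, ERN1 and ASNS.

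Chaperone genes are best known for the ER stress response element (ERSE), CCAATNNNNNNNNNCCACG, at which NF-Y binds the CCAAT end and ATF6 or XBP1 the other. RefSeq promoter windows (GRCh38.p14, 250 bases before to 50 after a start) were found for 35 of the 39 genes. Searched on both strands, the element was in the windows of 7 of them, PDIA6, CRELD2, HSPA5, XBP1, CALR, HSP90B1 and CANX, and in 0.0916% of all genes with a window. The following stretches before the start are shown because they carry the same element in genes whose signals went different ways. Capitals mark the element, on either strand, each line reads along the gene from 5′ to 3′, and a match of letters is a description and not a shown binding site.
PDIA6: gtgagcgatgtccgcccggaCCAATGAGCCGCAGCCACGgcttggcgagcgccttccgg
CRELD2: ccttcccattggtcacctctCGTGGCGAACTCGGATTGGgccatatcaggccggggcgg
HSPA5: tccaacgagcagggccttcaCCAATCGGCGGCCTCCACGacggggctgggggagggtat
XBP1: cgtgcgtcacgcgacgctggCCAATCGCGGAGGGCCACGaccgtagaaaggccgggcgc
CALR: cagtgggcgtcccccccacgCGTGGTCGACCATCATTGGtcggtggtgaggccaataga
HSP90B1: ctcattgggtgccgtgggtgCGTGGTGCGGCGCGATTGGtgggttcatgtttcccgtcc

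The PDIA6 stretch is chr2:10812833-10812891 (minus strand), with the element beginning 86 bases before the start, and that of CRELD2 is chr22:49918534-49918592 (plus strand), 80 bases before. That of HSPA5 is chr9:125241371-125241429 (minus strand), 66 bases before, and that of XBP1 is chr22:28800583-28800641 (minus strand), 52 bases before. That of CALR is chr19:12938364-12938422 (plus strand), 225 bases before, and the nearer of 2 in HSP90B1 is chr12:103930301-103930359 (plus strand), 89 bases before. The related ERSE-II was in the windows of HERPUD1, HYOU1 and SDF2L1 and in 0.0696% of all genes. Of these 10 genes, PDIA6 rose and CRELD2 fell in each MOAP-1 form, CANX rose by 1 of its 2 probes in K264R, and the other 7 were called in no comparison.

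The C/EBP-ATF type of element, TGATGNAA, through which ATF4 and CHOP act on amino acid genes, was in the windows of ASNS, ATF3, CHAC1, HERPUD1 and SLC3A2 and in 4.46% of all genes. Those of 3 genes are shown, with the element in capitals on either strand, because they are standard targets whose signals are given above.
ASNS: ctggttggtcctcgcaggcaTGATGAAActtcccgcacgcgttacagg
ATF3: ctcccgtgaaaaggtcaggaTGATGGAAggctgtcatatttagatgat
CHAC1: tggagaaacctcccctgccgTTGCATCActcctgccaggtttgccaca

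The ASNS stretch is chr7:97872449-97872496 (minus strand), with the element 68 bases before the start. That of ATF3 is chr1:212565196-212565243 (plus strand), 191 bases before, and that of CHAC1 is chr15:40953242-40953289 (plus strand), 209 bases before. Of these 3 genes, 1 ATF3 probe was called and the probes of ASNS and CHAC1 were not. The remaining elements were rare here, with TGACGTGG in HYOU1, where it overlaps the ERSE-II, and TGACGTCA in PPP1R15A, against 0.927% and 2.25% of all genes.

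PDIA6, a disulfide isomerase that also acts on the ER sensors, gave 0.81, 0.62 and 0.72 in the MOAP-1 tumors, 0.81, 0.83 and 0.59 with K264R and 0.19, 0.09 and 0.51 with K278R. It gave -1.78, -2.06 and -0.92 with RASSF1A and -0.94, -1.31 and -0.54 with vector. Every tumor of a MOAP-1 form lay above every RASSF1A and vector tumor, and the K278R tumors all lay below the MOAP-1 and K264R tumors. PDIA6 rose by 1.64 ± 0.25 (SE) in MOAP-1 (3.13-fold, adjusted p = 0.00058), 1.68 ± 0.25 in K264R (3.20-fold) and 1.19 ± 0.25 in K278R (2.28-fold). This was the largest rise among the 49 probes in MOAP-1 and in K264R. PDIA6 was called in MOAP-1 and in K264R under each of the 15 alternatives computed for single probes, and in K278R under all of these but normexp (0.81, adjusted p = 0.222).

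CRELD2, a secreted ER protein that rises under ER stress in many cells, went the other way. It gave 1.48, 1.56 and 1.64 in the MOAP-1 tumors, 1.52, 1.67 and 1.49 with K264R, 1.77, 1.58 and 1.69 with K278R, 3.02, 2.72 and 2.78 with RASSF1A, and 2.55, 2.74 and 2.06 with vector. All 9 tumors of the MOAP-1 forms lay below all vector and RASSF1A tumors. CRELD2 fell by 0.89 on the log2 scale in MOAP-1 (SE 0.15, 1.85-fold, adjusted p = 0.000973), fell by 0.89 in K264R and fell by 0.77 in K278R. It stayed lower under each of these alternatives, with the call lost with normexp in MOAP-1 (-0.64) and K278R (-0.52).

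HSPA5, the chaperone BiP and the central readout of ER stress, gave 0.12, 0.08 and 0.24 in MOAP-1, 0.20, 0.07 and 0.11 with K264R, 0.78, 0.24 and 0.48 with K278R, 0.63, 0.40 and 0.16 with RASSF1A, and 0.48, 0.32 and 0.57 with vector. XBP1 gave 2.21, 2.08 and 2.10 in MOAP-1, 2.31, 2.05 and 2.20 with K264R, 2.27, 1.82 and 2.17 with K278R, 2.60, 2.33 and 2.12 with RASSF1A, and 2.21, 2.42 and 2.43 with vector. Neither gene lay above vector in the MOAP-1 tumors. The change in MOAP-1 was -0.31 (95% interval -0.61 to 0.00) for HSPA5 and -0.22 (-0.53 to 0.08) for XBP1, so a 1.5-fold rise lies outside both intervals.

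PDIA4, a further disulfide isomerase, rose by 0.61 ± 0.16 (SE) in MOAP-1 (1.52-fold, adjusted p = 0.0112) and by 0.61 ± 0.16 in K264R. It sat close to the 1.5-fold limit, and leaving out MOAP-1 tumor 1, K264R tumor 2 or vector tumor 2, or treating the slide as a random block, took the change below it or the p above 0.05 (0.51 to 0.58). With normexp it was not called either, at 0.70 (adjusted p = 0.057) in MOAP-1 and 0.58 in K264R. CANX, the calnexin lectin of the folding cycle, rose by 0.80 ± 0.25 in K264R with the probe A_24_P345993 (adjusted p = 0.024), a call lost without K264R tumor 1 or 3 or vector tumor 1 or 3 and with normexp (0.04, and 0.20 without the extreme spots). The other CANX probe changed by -0.33 there, and on 1 K278R array it stood at 0.36 beside -0.82 and -0.93 on the others. The other chaperones and folding enzymes (CALR, HSP90B1, PDIA3, HYOU1, DNAJB9, DNAJC3, MANF and SDF2L1) were called in no comparison. Without MOAP-1 tumor 1, DNAJC3 was called higher in MOAP-1 than in RASSF1A (0.63).

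In ER-associated degradation, 1 of 5 probes rose in each MOAP-1 form and none fell, beside the shares of all probes that rose of 9.92%, 9.25% and 7.71%. It read EDEM1, a lectin that hands misfolded glycoproteins to the degradation machinery, and gave -4.28, -4.58 and -4.26 in MOAP-1, -4.78, -4.93 and -4.87 with K264R, -4.65, -5.12 and -4.85 with K278R, -5.63, -5.97 and -5.69 with RASSF1A, and -5.53, -5.63 and -5.39 with vector. All tumors of the MOAP-1 forms lay above all RASSF1A and vector tumors. EDEM1 rose by 1.14 ± 0.14 (SE) in MOAP-1 (2.20-fold, adjusted p = 0.000213), 0.66 ± 0.14 in K264R and 0.64 ± 0.14 in K278R. The last was below 1.5-fold without K278R tumor 1 or vector tumor 2 (0.53 and 0.58) and with quantile normalization (0.42). As for ATF2, the rise depended on the spot signal and background correction used: with normexp the changes were -1.07, -0.58 and -1.16, and without the extreme spots they were 0.10, -0.39 and 0.01. HERPUD1, SYVN1 and both probes of SEL1L, which form the ubiquitin ligase complex of this pathway, were not called. Among the alternatives, SEL1L A_33_P3404701 was called higher in K264R with the slide as a random block (0.65) and without K264R tumor 2 (0.85) or 3 (0.91). In K278R it was called by the methods' unadjusted t-test (0.62).

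**Figure D4:**
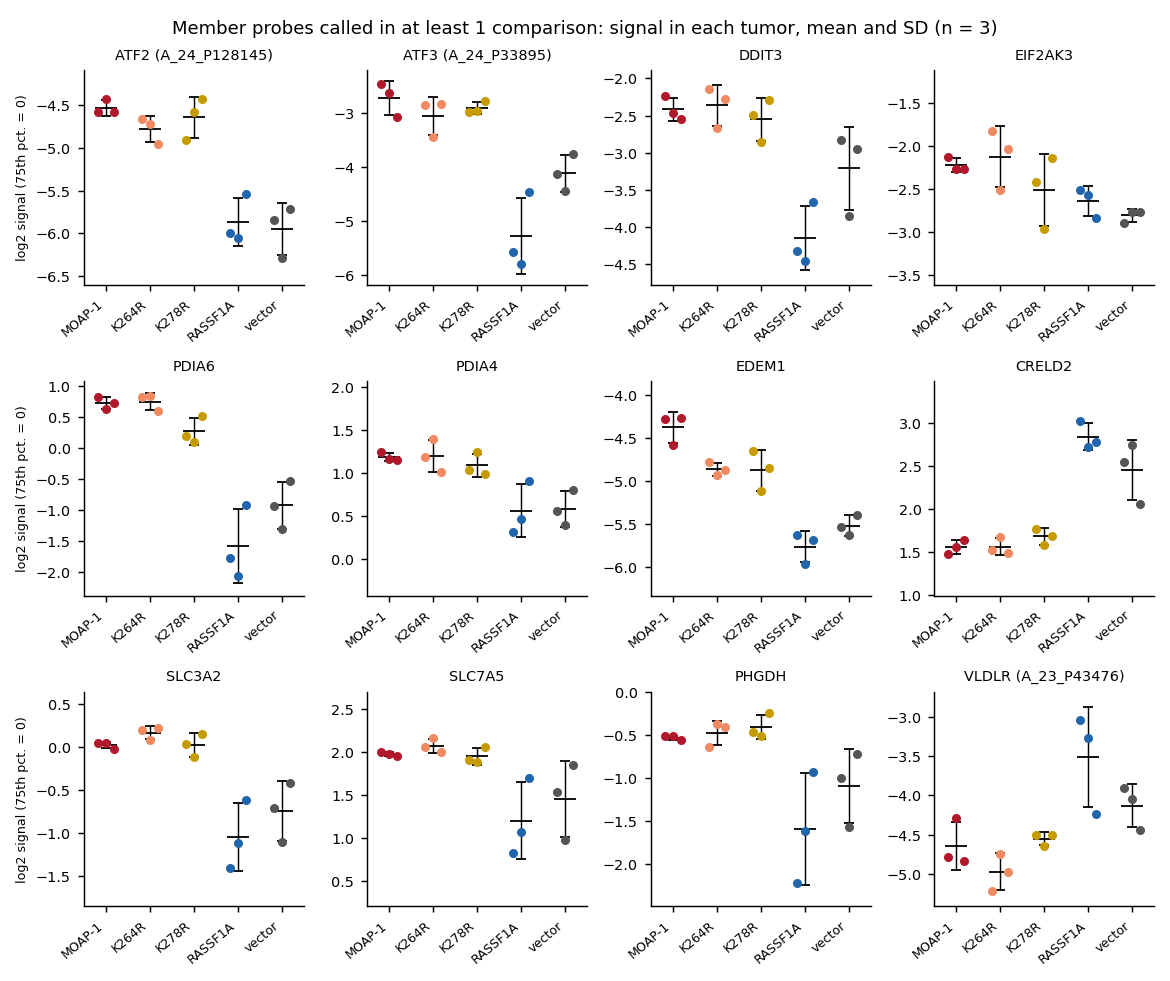
Log2 signal in each tumor (points) with the mean and SD of 3 tumors (bars) for 12 member probes called in at least 1 comparison. PDIA6, EDEM1, SLC3A2 and the ATF2 and ATF3 probes show the 3 MOAP-1 forms above RASSF1A and vector, and CRELD2 shows them below. Against vector with the normexp setting, the ATF2 and EDEM1 changes turned sign, that of ATF3 did so in MOAP-1 and K278R, and SLC3A2 was not called. Vector tumor 2 is the lowest vector tumor for 9 of the 11 probes called higher in any form.

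ATF5, another factor of the pathway, rose by 0.63 ± 0.17 in K278R (adjusted p = 0.0206), and its changes in MOAP-1 and K264R were 0.58 and 0.54. The call in K278R was lost without K278R tumor 3 or vector tumor 2 and with quantile normalization (0.48), and the change was -0.63 with normexp. With the authors' table, and without some single tumors, ATF5 was also called in MOAP-1 and K264R (0.60 and 0.59 with that table). CEBPB, a partner of ATF4 and CHOP, was called in no comparison. Of the 14 member probes with a mean signal below -2, 5 rose in MOAP-1, and of the other 35, 3 rose. Over all probes kept, 12.7% of those below -2 and 7.35% of the others rose in that comparison. The ATF2, EDEM1, DDIT3, EIF2AK3 and ATF3 calls all lie in the dim range, whereas PDIA6, PDIA4, SLC3A2 and CRELD2 do not. The median of all probes in MOAP-1 against vector was itself at -0.53 with normexp, and at -0.15 without the extreme spots.

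The MOAP-1 forms were next compared with each other, which asks whether either lysine matters for the tumor transcriptome. Between MOAP-1 and K264R, limma called 0 of the 49 probes, beside 0.00327% of all probes higher and 0% lower, and 4 had an unadjusted p below 0.05, beside 3325 of all 30585 probes. Between MOAP-1 and K278R it called 0 of the 49, beside 0% higher and 0% lower, and 8 had an unadjusted p below 0.05, beside 2821 of all probes. The changes lay between -0.41 and 0.48 against K264R and between -0.49 and 0.50 against K278R. At both upper ends stood EDEM1. MOAP-1 tumor 2 and the K278R tumors lay on 1 slide. The median difference of that tumor from the mean of the K278R tumors was 0.01 over the 49 probes. None of the 49 differed by 1.5-fold. This count rests on MOAP-1 tumor 2 alone for MOAP-1 and was not made over all probes. It therefore does not tell a trait of these genes from one of the whole arrays. A difference that misses the threshold does not show that the forms act alike.

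Against RASSF1A, 10 of the 49 probes were higher in MOAP-1 and 2 were lower, beside 13% and 8.14% of all probes. ATF3 A_24_P33895 was higher by 2.55 ± 0.30 (SE) (5.84-fold, adjusted p = 6.16e-05), PDIA6 by 2.30 ± 0.25 (4.93-fold), DDIT3 by 1.73 ± 0.27 (3.31-fold) and EDEM1 by 1.39 ± 0.14 (2.62-fold). ATF2 A_24_P128145 was higher by 1.33, SLC3A2 by 1.07, PHGDH by 1.06, SLC7A5 by 0.78, ATF5 by 0.76 and PDIA4 by 0.63. CRELD2 lay at -1.28 ± 0.15 (2.42-fold lower) and VLDLR A_23_P43476 at -1.12 ± 0.26 (2.18-fold lower). ATF4, TRIB3, ASNS, XBP1 and HSPA5 were again not called. With normexp 5 of the 12 calls were kept, those of PDIA6, CRELD2, SLC3A2, PHGDH and PDIA4. The values of the others were then 1.15 for ATF3, 0.92 for DDIT3, 0.81 for SLC7A5, 0.35 for ATF5, 0.27 for EDEM1, 0.23 for ATF2 and -0.67 for VLDLR.

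The RASSF1A tumors differed among themselves. RASSF1A tumors 1 and 2 were on a slide of their own, scanned on a later day, and tumor 3 was on the slide of the vector tumors. Set against the mean of the vector tumors, 8 of the 49 probes in tumor 1 and 5 in tumor 2 differed by 1.5-fold or more, and 0 did in tumor 3, on the shared slide. These counts were not made over all probes, so they do not tell a trait of these genes from a shift of the whole array. ATF3 A_24_P33895 stood at -1.45, -1.67 and -0.35 from that mean in tumors 1, 2 and 3, DDIT3 at -1.11, -1.25 and -0.45, PDIA6 at -0.85, -1.13 and 0.01, and VLDLR A_23_P43476 at 1.09, 0.86 and -0.10. Without tumor 3, limma called 5 of the 49 probes in RASSF1A against vector, beside 4.6% of all probes. ATF3 at -1.56 (adjusted p = 0.00568), DDIT3 at -1.18, PDIA6 at -0.99 and PHGDH at -0.83 were lower, and VLDLR at 0.97 was higher. With tumor 3 as the only RASSF1A tumor, the difference from MOAP-1 was 1.74 for ATF3, 1.63 for PDIA6, 1.31 for EDEM1, 1.24 for DDIT3, 1.01 for ATF2 and -1.22 for CRELD2. For the rest of the 12 it was 0.64 for SLC3A2, 0.48 for ATF5, 0.40 for PHGDH, 0.29 for PDIA4, 0.28 for SLC7A5 and -0.40 for VLDLR. With scan day as a term these differences were the same. In these fits the lone tumor is assumed to vary like the other groups.

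**Figure D5:**
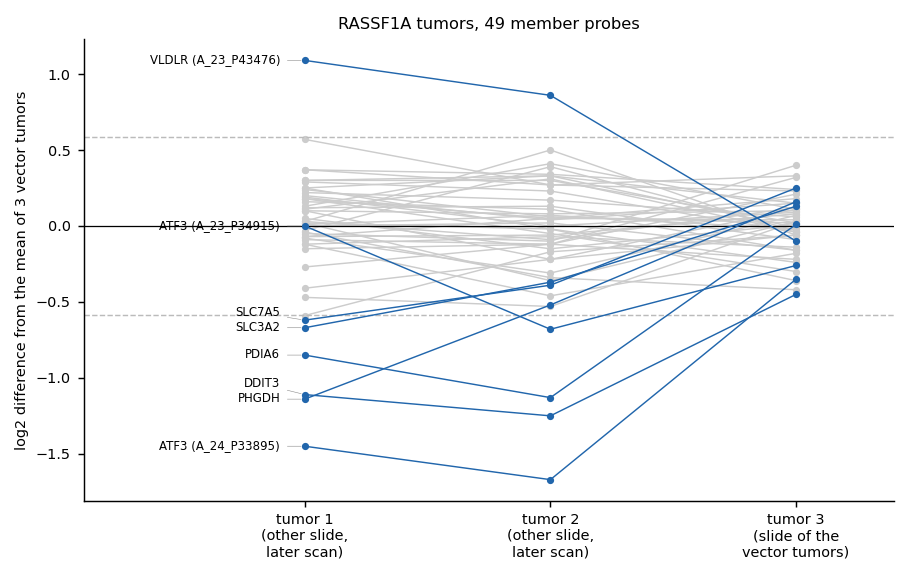
Log2 difference of each RASSF1A tumor from the mean of the 3 vector tumors for the 49 probes, with the points of 1 probe joined and probes that reach 0.6 in any tumor in blue. Dashed lines mark 1.5-fold. Tumors 1 and 2 reach -1.45 and -1.67 for ATF3, whereas all points of tumor 3 lie between -0.45 and 0.40.

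A wider list of 111 genes of the same pathways was counted in the same fit, and 109 of them had 142 probes kept. In MOAP-1, 23 of these probes rose (16.2%) and 6 fell (4.23%), beside 9.92% and 6.69% of all probes. In K264R 24 rose (16.9%) and 9 fell (6.34%), beside 9.25% and 10.2%, in K278R 17 rose (12%) and 4 fell (2.82%), beside 7.71% and 3.2%, and in RASSF1A none was called. The tRNA synthetases that ATF4 raises had 5 of 15 probes higher and 0 lower in MOAP-1, to be read, like the counts that follow, against those 9.92% and 6.69%. Other ER folding and export genes had 8 of 35 higher and 0 lower, other ER-associated degradation genes 3 of 24 higher and 2 lower, and other ATF4 and CHOP targets 3 of 23 higher and 1 lower. Other ATF, CREB and C/EBP factors had 0 of 25 higher and 3 lower.

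The largest called rise in this wider list was that of XPOT, a tRNA export factor, in MOAP-1 (1.72) and in K264R (1.79), and that of YARS1, a tRNA synthetase, in K278R (1.62). The largest called fall was that of ALDH1L2, a mitochondrial folate enzyme and ATF4 target, in each form (-2.43, -3.34 and -1.76). Among eIF2, eIF2B, the eIF2 kinases and the phosphatase subunits, 4 of 20 probes rose in MOAP-1 and none fell, beside 9.92% and 6.69% of all probes. They read EIF2B4 (1.19), EIF2B5 (1.11), EIF2S2 (1.03) and PPP1CA (0.77), which are named after their values were seen. The brighter EIF2S2 probe A_32_P157965 changed by 0.48 in MOAP-1 and was not called. The wider list was not counted again under the alternatives. The EIF2B4 and EIF2B5 probes are also in the study's own gene table, so they are not independent evidence.

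Of 10 colon epithelium markers, 9 were well above background in every tumor, beside 28258 of the 34127 probes of the array. CDH17 was below background in every tumor, and KRT20 and VIL1 were dim, at -3.28 to -2.98 and -4.01 to -2.35. The 10 markers alone do not show a colon origin. Their summed level relative to the 75th percentile was 272 to 313 in the vector tumors, 224 to 257 in MOAP-1, 204 to 230 in K264R, 185 to 263 in K278R and 239 to 270 in RASSF1A, so that it was highest in vector. The summed level of 10 stromal fibroblast markers ran from 2.36 to 21.8 in vector and from 6.96 to 51.1 in MOAP-1, with 6 of the 10 well above background in every tumor and LUM below it in every tumor. The median change of the 9 fibroblast probes kept was 1.89 in MOAP-1, 0.56 in K264R, 1.73 in K278R and 1.03 in RASSF1A. Against vector DCN rose by 4.46 ± 1.14 (SE) in MOAP-1 with the probe A_33_P3382856, and its brighter probe A_23_P64873 was not called. COL1A1 rose by 2.24 ± 0.76 in MOAP-1, and PDGFRB by 1.34 ± 0.43 in K278R. The leukocyte marker PTPRC rose by 0.72 in MOAP-1 and 0.69 in K278R, where the median change of the 8 leukocyte probes kept was 0.07 and 0.02. The epithelial keratin KRT8 rose by 1.07 in MOAP-1 and 0.97 in K264R with the probe A_24_P67395. Its brighter probe A_23_P14072 was not called. The median change of the 12 epithelial probes kept was -0.04 in MOAP-1 and -0.07 in K264R. For 10 hypoxia genes the sums were 72.8 to 101 in vector, 71.7 to 103 in MOAP-1 and 47.1 to 77.6 in RASSF1A. For 6 endothelial markers they were 2.12 to 2.37 in vector and 2.42 to 2.84 in MOAP-1, for 5 leukocyte markers with a probe 7.71 to 7.92 and 8.04 to 10.7, and for 4 erythroid markers with a probe 12.8 to 15.2 and 11 to 15.1. Fewer cells of a type and less RNA per cell cannot be told apart in these tumors, and the part of cell makeup in the changes above was not tested.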

How the data were processed

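HCT116 xenograft tumors of 5 constructs, 3 tumors each, were grouped by their labels. For each array the authors deposited Agilent Feature Extraction output, whose processed signal is a background-subtracted intensity that was not normalized between arrays. The authors also deposited a log2 table made in GeneSpring and shifted to the 75th percentile, which was used as an alternative, since 8 of its columns followed the array of the same label and 7 another array of the same construct. The submitters' notes name Feature Extraction 9.1 and the file headers 10.5.1.1.

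Control spots and spots marked as outliers were removed, log2 processed signals were centered on the 75th percentile of their array and the spots of a probe were averaged. Probes had to pass the scanner's background test in every tumor of some construct. A limma 3.58.1 model (lmFit and eBayes in R 4.3.3) was fitted to the 15 arrays with a term for construct alone, which left 10 residual degrees of freedom, with Benjamini-Hochberg adjustment over 30585 probes. The fit was tested on simulated data. Probes were named through RefSeq (GRCh38.p14). Arrays give no read depth, and the precision is limited by the 3 tumors per construct.

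All 39 members were accounted for. Values in every tumor were given for 12 core genes and for up to 4 of the largest called rises and falls of each comparison. A wider list of 111 pathway genes was counted by sublist, naming the largest called rise and fall in each comparison with vector, and 6 marker lists were summed. The members, the wider lists and the tests were chosen with earlier results of these data known. As alternatives, quantile normalization was tried, as were normexp background correction (offset 50) and the same with its fit trimmed of spots whose local background was over 10 times the array median, 2 other filters on dim probes, the authors' table, the slide as a random block, the scan day, the replicate number, only the arrays compared, the methods' t-test, 1 probe per gene, and leaving out each tumor. No MOAP-1 form shared a slide with vector, so the slide block cannot separate slide from construct in those comparisons. Both normexp settings started from the median spot signal and not from the processed signal. Leaving out the tumors of the later scan day was added after seeing the data.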

Additional observations from a re-analysis of the deposited data

Results flagged for a closer look

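The effect of MOAP-1 differed from that of RASSF1A, each against the same vector tumors, for 12 of the 49 probes, as tested directly by the contrast of MOAP-1 with RASSF1A. In that contrast 21.2% of all probes were called. On the log2 scale the difference was 2.55 for ATF3 A_24_P33895, 2.30 for PDIA6, 1.73 for DDIT3 and 1.39 for EDEM1. It was 1.33 for ATF2 A_24_P128145, 1.07 for SLC3A2, 1.06 for PHGDH, 0.78 for SLC7A5, 0.76 for ATF5 and 0.63 for PDIA4. It was -1.12 for VLDLR A_23_P43476 and -1.28 for CRELD2. RASSF1A tumors 1 and 2 shared a slide and a later scan day. Without them the 12 differences were smaller, between 0.28 and 1.74 in size. With normexp 5 of the 12 were called. The part of slide, scan day and image extraction in these differences was not tested apart from construct.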

How the results depend on the processing

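PDIA6 and CRELD2 kept their direction under each alternative computed for single probes, in each comparison with vector in which they were called. Where 9 probes were called in MOAP-1, normexp called 1, normexp fitted without extreme background spots 5 and the methods' t-test after Benjamini-Hochberg adjustment 5. For K264R, with 12, these counts were 2, 7 and 5 (the 7 held 6 of the 12 and VLDLR A_33_P3284925), for K278R, with 7, they were 0, 3 and 0, and K278R had 3 when only the arrays compared were fitted. In the same order, these settings called 1.71%, 9.01% and 8.59% of all probes in MOAP-1 and 2.99%, 29.4% and 14.1% in K264R. In K278R they called 0.00327%, 4.26% and 0%, and 3.83% with only the arrays compared. For MOAP-1 against RASSF1A, with 12, the count was 5 with normexp, beside 7.39% of all probes. With scan day as a term, or without the tumors of the later scan day, the 12 differences were smaller, at 0.28 to 1.74 in size. Those of SLC3A2, ATF5, PHGDH, PDIA4, SLC7A5 and VLDLR A_23_P43476 were then 0.28 to 0.64 in size. In both settings the difference rests on RASSF1A tumor 3, so no count of calls is given. Leaving out 1 tumor at a time gave 7 to 10 in MOAP-1, 6 to 15 in K264R, 3 to 10 in K278R, 0 to 5 in RASSF1A and 10 to 13 for MOAP-1 against RASSF1A. In the same order, the shares of all probes called were 12.3% to 18.6%, 16% to 22.1%, 5.52% to 12.9%, 0% to 4.6% and 18.7% to 23.5%. The counts between MOAP-1 and K264R and between MOAP-1 and K278R were 0 in every alternative run, beside at most 1.03% and 0.67% of all probes.

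With normexp 19 of the 49 changes turned sign in MOAP-1, 15 in K264R and 24 in K278R, and without the extreme background spots 7, 6 and 4. Values are given for the core genes in MOAP-1 and for called probes. With normexp in MOAP-1 those that turned were ATF2 A_24_P128145 (-1.20), ATF2 A_24_P246467 (-1.05), ATF3 A_23_P34915 (0.17), ATF3 A_24_P33895 (-0.32), ATF4 (0.03), CHAC1 A_33_P3376965 (-1.27), DDIT3 (-0.49), EDEM1 (-1.07), EIF2AK3 (-0.41), ERN1 (-1.07) and XBP1 (0.01). In K264R they were ATF2 A_24_P128145 (-0.59) and EDEM1 (-0.58), and in K278R ATF2 A_24_P128145 (-1.14), ATF3 A_24_P33895 (-0.40), ATF5 (-0.63) and EDEM1 (-1.16). Without the extreme background spots they were, in MOAP-1, ATF2 A_24_P128145 (-0.02), ATF2 A_24_P246467 (-0.20), ATF3 A_23_P34915 (0.00), CHAC1 A_33_P3376965 (-0.26) and ERN1 (-0.12), and in K264R ATF2 A_24_P128145 (-0.36) and EDEM1 (-0.39). Quantile normalization turned CHAC1 A_33_P3376965 (-0.05) and ATF3 A_23_P34915 (0.13), and the authors' table turned the latter (0.02). Both ASNS, at 0.03 (-0.06 without MOAP-1 tumor 3 or vector tumor 2, in a range up to 0.14), and ATF3 A_23_P34915, at 0.00 (0.01 to 0.16 with 4 of the single tumors left out), lay near 0. The cause was not tested, but normexp moved the median of all probes in MOAP-1 from 0.02 to -0.53.

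With a replicate block, the counts were 9, 12, 8, 0, 0, 0 and 12 in the order of the 7 comparisons. The shares of all probes called were 17.2%, 19.8%, 11.6%, 0%, 0.00327%, 0% and 21.5%. No call was lost and 1 was gained, DDIT3 in K278R (0.66, adjusted p = 0.0351). The numbers were not taken to pair the tumors, since correlations of same-numbered tumors ran from -0.25 to 0.37. Probes near background, with 3 tumors a construct, carry the least certain changes.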
